A study of Saccharomyces pastorianus with 12 samples.

Results

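The SNZ and SNO genes of yeast were followed in lager brewing yeast, Saccharomyces pastorianus, a hybrid with a Saccharomyces cerevisiae parent, during a production-scale lager beer fermentation. The 6 genes SNZ1, SNO1, SNZ2, SNO2, SNZ3 and SNO3 were found by symbol in the probe annotation, each with 1 probe and a value on all 12 arrays, out of 6051 tested genes and unnamed probes. Total RNA was sampled at 0, 1, 24, 48, 72, 96, 120, 144, 168, 192, 240 and 264 h, with 1 array per time. The labels name no strain, wort or vessel and do not say whether 1 fermentation or several were sampled, so a p-value here measures only the spread between these arrays. Neighbouring times were pooled into windows by their labels: 2 arrays fell in the window of 0 and 1 h, 3 each in those of 24 to 72 h and of 96 to 144 h, and 4 in that of 168 to 264 h. The spread within a window therefore includes any change between its times, which makes a call in the window tests harder to reach.

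Snz and Sno proteins are the subunits of pyridoxal phosphate synthase, which makes the active form of vitamin B6 from a pentose phosphate, a triose phosphate and glutamine. Snz is the synthase subunit, and Sno is the glutaminase that frees ammonia from glutamine for it. In S. cerevisiae each SNZ gene lies beside its SNO partner. SNZ1 and SNO1 are known there for their rise on entry into stationary phase and on amino acid starvation, and the SNZ2 and SNZ3 pairs, near the chromosome ends beside genes of the THI5 family, for their response to a lack of thiamine. SNZ2 and SNZ3, and likewise SNO2 and SNO3, are near-identical in that species, so their probes can share signal. The probes carry S. cerevisiae gene names, and alleles of the 2 parents of the hybrid could not be told apart.

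The deposited values were linear probe intensities with array medians between 762 and 10142 units (the 168 h and 96 h arrays). Below, a level is the log2 distance of a gene's intensity from the median of the same array, so 0 is the median, and a percentile is the rank of the intensity on its array. No background signal came with the values, and an intensity under the 5th percentile of its array is called dim. As deposited, the median difference of all genes was 0.99 log2 units between 24 to 72 h and 0 and 1 h, -1.13 between 96 to 144 h and 24 to 72 h, and -2.06 between 168 to 264 h and 24 to 72 h, and below differences are between centred levels. The 240 h array had the narrowest levels (SD 0.67 log2 units) and the 1 h array the widest (SD 1.56). Across the 6042 other genes with a value on every array, the second principal component held 18.1% of the variance. Its score was 0.18 at 0 h, -0.35 at 1 h, 0.13 at 24 h, -0.06 at 48 h, 0.17 at 72 h, -0.26 at 96 h, 0.39 at 120 h, 0.01 at 144 h, 0.48 at 168 h, -0.23 at 192 h, -0.53 at 240 h and 0.07 at 264 h, and so went up and down between neighbouring arrays as far as 192 h. The labels name no scan, slide or batch.

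The 6 genes did not follow a common course. SNZ1 was highest at 24 and 48 h, SNO3 at 1 h, SNZ3 at 96 h and SNO2 at 240 h, while SNO1 and SNZ2 lay under the array median on all 12 arrays. In centred values no member passed limma's test at an adjusted p of 0.05 in any comparison. Of all genes, 0% passed between 24 to 72 h and 0 and 1 h, 0% between 96 to 144 h and 24 to 72 h, 0.0826% between 168 to 264 h and 24 to 72 h, and 0.0331% over the 12 times. The values of each gene follow, in the order of the pairs.

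**Figure D1:**
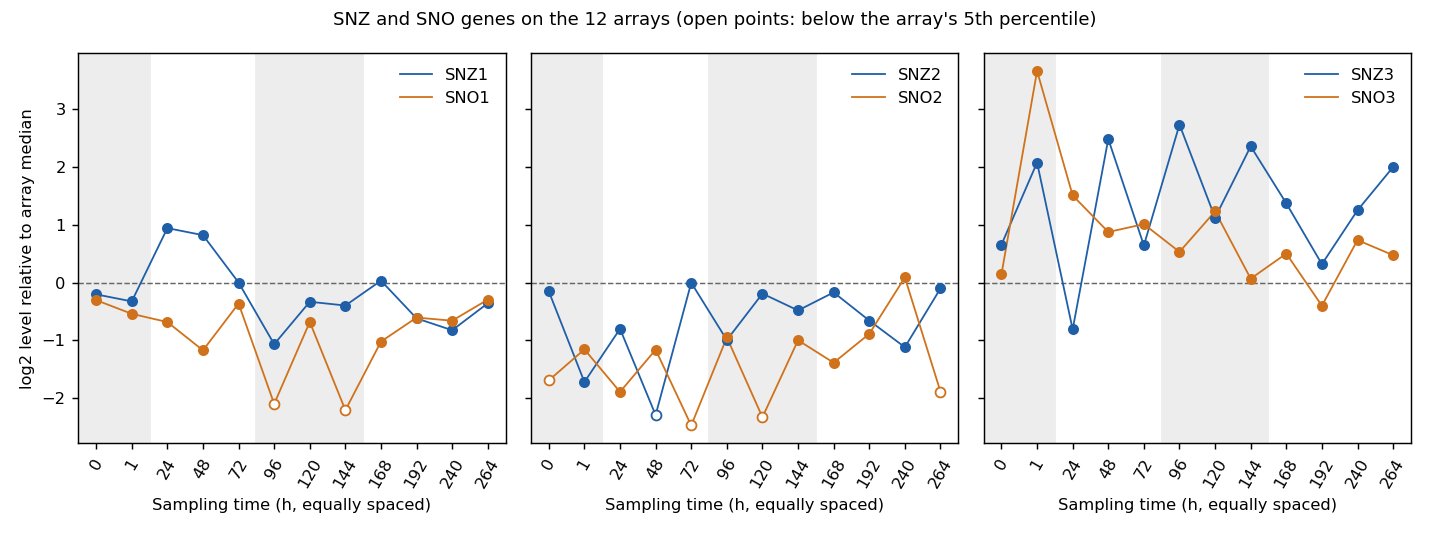
Levels (log2 relative to the array median, vertical axis) of each SNZ gene (blue) and its SNO partner (orange) on the 12 arrays, placed by sampling time at equal spacing. Grey and white bands are the windows, the dashed line is the array median and open points are dim. SNZ1 peaks at 24 and 48 h, SNO3 peaks at 1 h, and SNZ3 goes up and down between neighbouring times.

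SNZ1 (Entrez gene 855121), the synthase subunit gene known for its rise in stationary phase, had levels of -0.20 at 0 h, -0.33 at 1 h, 0.94 at 24 h, 0.82 at 48 h, 0.00 at 72 h, -1.06 at 96 h, -0.33 at 120 h, -0.40 at 144 h, 0.03 at 168 h, -0.62 at 192 h, -0.82 at 240 h and -0.36 at 264 h. The arrays at 24 and 48 h stood highest, at the 76.2 and 77.4 percentile, and the array at 96 h lowest, at the 10.4 percentile. The highest and lowest levels were 4.01-fold apart. The window means were -0.27 ± 0.09 at 0 and 1 h (SD, n = 2), 0.59 ± 0.51 at 24 to 72 h (n = 3), -0.60 ± 0.41 at 96 to 144 h (n = 3) and -0.44 ± 0.37 at 168 to 264 h (n = 4). The window of 24 to 72 h was the highest, and all 3 of its arrays lay above both arrays of 0 and 1 h, the next lower window. Below it, 0 and 1 h overlapped with 168 to 264 h, and that window with 96 to 144 h, the lowest.

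The difference in SNZ1 between 24 to 72 h and 0 and 1 h was 0.85 log2 units (SE 0.47, 1.80-fold; limma adjusted p = 1.00), and it lay between 0.67 and 1.14 with any single array left out. Levels at 96 to 144 h were 2.27-fold lower than at 24 to 72 h, a difference of -1.18 (SE 0.42; limma adjusted p = 0.688, from -1.48 to -0.95 with single arrays left out), and the 2 windows did not overlap. Levels at 168 to 264 h differed from those at 24 to 72 h by -1.03 (SE 0.40, 2.04-fold lower; limma adjusted p = 0.250, from -1.32 to -0.85 with single arrays left out), with the 168 h array inside the range of the earlier window. None of the 3 differences passed. Windows that did not overlap were found for 6.54% of all genes upward between 24 to 72 h and 0 and 1 h, and for 9.97% downward between 96 to 144 h and 24 to 72 h. In the values as deposited, without centring, the difference between 168 to 264 h and 24 to 72 h was -3.13 and passed (limma adjusted p = 0.0139), as did 2125 of all genes, every one of them lower. Over all 21 alternatives for this difference of SNZ1 limma's adjusted p ran from 0.0139 to 0.776.

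SNO1 (Entrez gene 855120), the glutaminase partner of SNZ1, had levels of -0.30 at 0 h, -0.54 at 1 h, -0.68 at 24 h, -1.17 at 48 h, -0.36 at 72 h, -2.09 at 96 h, -0.68 at 120 h, -2.20 at 144 h, -1.02 at 168 h, -0.61 at 192 h, -0.66 at 240 h and -0.29 at 264 h. It never reached the array median, and its highest rank was the 34.3 percentile, at 264 h. The 2 lowest arrays, at 96 and 144 h, were dim. SNO1 had no counterpart of the SNZ1 peak at 24 and 48 h. The window means were -0.42 ± 0.17 at 0 and 1 h (n = 2), -0.74 ± 0.41 at 24 to 72 h (n = 3), -1.66 ± 0.85 at 96 to 144 h (n = 3) and -0.64 ± 0.30 at 168 to 264 h (n = 4). The lowest window was 96 to 144 h, and windows next to each other in level overlapped.

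The largest window difference of SNO1 was -0.92 log2 units between 96 to 144 h and 24 to 72 h (SE 0.46, 1.89-fold lower; limma adjusted p = 0.688), from -1.41 to -0.65 with single arrays left out. With a floor at the 5th percentile, under which the dim arrays at 96 and 144 h lie, it was -0.42, and as deposited -2.05. It was also negative for SNZ1, so both genes of the pair were lower at 96 to 144 h than at 24 to 72 h without passing. The other differences of SNO1 were small, -0.32 (SE 0.51) between 24 to 72 h and 0 and 1 h (0.76 as deposited) and 0.09 (SE 0.43) between 168 to 264 h and 24 to 72 h (-2.01 as deposited, and -0.08 after quantile normalization).

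SNZ2 (Entrez gene 855383), a synthase subunit gene of the thiamine-linked pairs, had levels of -0.15 at 0 h, -1.72 at 1 h, -0.80 at 24 h, -2.29 at 48 h, -0.00 at 72 h, -0.99 at 96 h, -0.19 at 120 h, -0.48 at 144 h, -0.17 at 168 h, -0.66 at 192 h, -1.12 at 240 h and -0.10 at 264 h. All 12 levels were at or under the array median, and the lowest, at 48 h, was dim. The arrays at 1 and 48 h stood lowest and those at 72 and 264 h highest. The window means were -0.94 ± 1.11 at 0 and 1 h (n = 2), -1.03 ± 1.16 at 24 to 72 h (n = 3), -0.56 ± 0.41 at 96 to 144 h (n = 3) and -0.51 ± 0.47 at 168 to 264 h (n = 4). The lowest was 24 to 72 h, and windows next in level overlapped.

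The differences of SNZ2 had no stable sign. That between 24 to 72 h and 0 and 1 h was -0.09 log2 units (SE 0.64), and it was 0.69 when the 0 h array was left out, -0.88 when the 1 h array was, 0.98 as deposited and 0.13 with a floor at the 5th percentile. That between 168 to 264 h and 24 to 72 h was 0.52 (SE 0.54, 1.43-fold; limma adjusted p = 0.673), and -0.11 without the 48 h array or -1.58 as deposited. That between 96 to 144 h and 24 to 72 h was 0.47 (SE 0.58; limma adjusted p = 0.880), and -0.15 without the 48 h array or -0.66 as deposited.

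SNO2 (Entrez gene 855382), the glutaminase gene beside SNZ2 in S. cerevisiae, had levels of -1.69 at 0 h, -1.15 at 1 h, -1.89 at 24 h, -1.16 at 48 h, -2.47 at 72 h, -0.95 at 96 h, -2.32 at 120 h, -0.996 at 144 h, -1.38 at 168 h, -0.89 at 192 h, 0.09 at 240 h and -1.88 at 264 h. The 4 arrays at 0, 72, 120 and 264 h were dim. The 240 h array, the one with the narrowest levels, was the single array above the median, at the 55.2 percentile, and on the other 11 the gene lay at or below the 14.9 percentile. Means were -1.42 ± 0.38 at 0 and 1 h (n = 2), -1.84 ± 0.66 at 24 to 72 h (n = 3), -1.42 ± 0.78 at 96 to 144 h (n = 3) and -1.02 ± 0.84 at 168 to 264 h (n = 4). The window of 24 to 72 h was lowest and that of 168 to 264 h highest, with overlap at each step in level. The difference between 168 to 264 h and 24 to 72 h was 0.82 log2 units (SE 0.52, 1.77-fold; limma adjusted p = 0.485), 0.45 without the 240 h array and -1.28 as deposited. The differences between 24 to 72 h and 0 and 1 h (-0.42, SE 0.62; 0.66 as deposited) and between 96 to 144 h and 24 to 72 h (0.42, SE 0.55; -0.72 as deposited) were smaller than their errors.

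SNZ3 (Entrez gene 850485), the near-identical relative of SNZ2, had levels of 0.65 at 0 h, 2.07 at 1 h, -0.81 at 24 h, 2.48 at 48 h, 0.64 at 72 h, 2.73 at 96 h, 1.12 at 120 h, 2.35 at 144 h, 1.37 at 168 h, 0.32 at 192 h, 1.25 at 240 h and 1.99 at 264 h. It lay above the array median on 11 of 12 arrays, with the 24 h array as the exception, and reached the 99.1 percentile at 96 h. In the last window its percentile was 83.5 at 168 h, 66.3 at 192 h, 97.9 at 240 h and 98.9 at 264 h. The last 2 of these were above those at 1 h (89.3), 48 h (94.8) and 144 h (96.6), where the centred level was higher. Its range of 3.53 log2 units, or 11.6-fold, lay largely between neighbouring times: 24 h and 48 h differed by almost the whole of it. The standard deviation of its level over the 12 arrays, 1.04, was above that of 90.5% of genes (median gene 0.63). By window it averaged 1.36 ± 1.001 at 0 and 1 h (n = 2), 0.77 ± 1.65 at 24 to 72 h (n = 3), 2.06 ± 0.84 at 96 to 144 h (n = 3) and 1.23 ± 0.69 at 168 to 264 h (n = 4). The highest window, 96 to 144 h, overlapped with the next, 0 and 1 h, and so did the others in order of level.

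The difference in SNZ3 between 96 to 144 h and 24 to 72 h was 1.30 log2 units (SE 0.72, 2.45-fold; limma adjusted p = 0.717). It was 0.17 as deposited. Leaving out the 24 h array gave 0.51, and leaving out the 48 h array 2.15. Between 24 to 72 h and 0 and 1 h the difference was -0.59 (SE 0.80), 0.20 without the 24 h array and 0.48 as deposited. Between 168 to 264 h and 24 to 72 h it was 0.46 (SE 0.67), -0.33 without the 24 h array, -1.64 as deposited and 1.08 after quantile normalization. Neither of the 2 passed.

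SNO3 (Entrez gene 850484), the glutaminase gene beside SNZ3, had levels of 0.14 at 0 h, 3.65 at 1 h, 1.50 at 24 h, 0.87 at 48 h, 1.01 at 72 h, 0.53 at 96 h, 1.23 at 120 h, 0.07 at 144 h, 0.50 at 168 h, -0.40 at 192 h, 0.73 at 240 h and 0.47 at 264 h. The 1 h array stood far above the others, at the 96.0 percentile, and the 192 h array was the single one under the median. By window it averaged 1.90 ± 2.48 at 0 and 1 h (n = 2), 1.13 ± 0.33 at 24 to 72 h (n = 3), 0.61 ± 0.58 at 96 to 144 h (n = 3) and 0.33 ± 0.50 at 168 to 264 h (n = 4). Each window mean was lower than that of the window before, with overlap between neighbours. All 4 arrays of 168 to 264 h lay under all 3 of 24 to 72 h, with a difference of -0.80 log2 units (SE 0.63, 1.74-fold lower; limma adjusted p = 0.572), from -0.94 to -0.56 with single arrays left out. Windows that did not overlap downward were found for 7.39% of all genes in that comparison. By rank the windows of SNO3 did overlap. The 240 h array, with the narrowest levels, was at the 88.8 percentile, above 24 h (85.3), 48 h (78.6) and 72 h (87.8). It was above them after quantile normalization too (12.86 against 12.64, 12.34 and 12.79). As deposited the difference was -2.90 and passed (limma adjusted p = 0.0211, in a range of 0.0211 to 0.935 over 21 alternatives). Between 24 to 72 h and 0 and 1 h the difference was -0.77 (SE 0.75), but -2.52 with the 0 h array left out, 0.98 with the 1 h array left out and 0.30 as deposited.

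Between 1 h and 0 h, with 1 array each and no test, SNO3 was 11.4-fold higher at 1 h (3.51 log2 units, and 1.99 or 3.97-fold after quantile normalization). It was the 1 member of 6 past 4-fold upward, against 9.57% of all genes, and 0 members were past 4-fold downward, against 4.15%. SNZ3 was 2.67-fold higher at 1 h (1.38-fold after quantile normalization) and SNO2 1.45-fold (2.03-fold). SNZ2 was 2.95-fold lower at 1 h, with a log2 difference of -1.56 (-1.17 after quantile normalization). SNZ1 and SNO1 differed by -0.12 and -0.24 log2 units, and by 0.02 and -0.04 after quantile normalization. SNO3 and SNZ3 were thus higher at 1 h while SNZ2 was lower, although SNZ2 and SNZ3 are near-identical in S. cerevisiae.

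**Figure D2:**
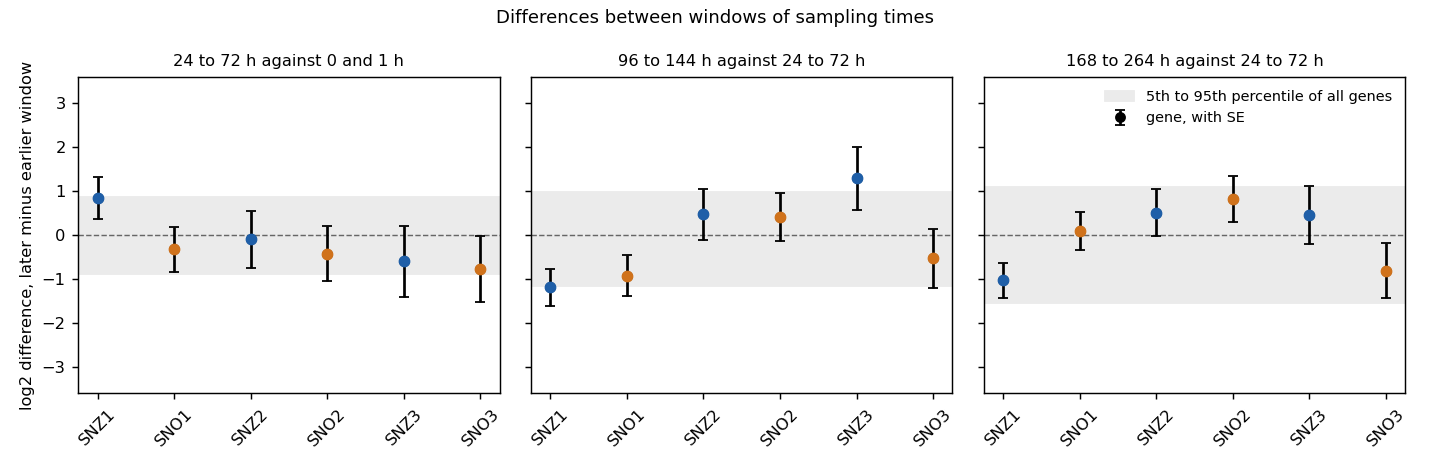
Log2 differences, later minus earlier window, of the 6 genes in the 3 window comparisons, with standard errors from limma (SNZ genes blue, SNO genes orange). The grey band spans the 5th to 95th percentile of all 6051 genes and probes, and 4 of the 18 member differences have a size over 0.9, led by SNZ3 at 1.30 and SNZ1 at -1.18 in 96 to 144 h against 24 to 72 h.

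Over all genes, 0 of 6051 passed limma's adjusted threshold of 0.05 between 24 to 72 h and 0 and 1 h (0%, with 171 at an unadjusted p under 0.05) and 0 between 96 to 144 h and 24 to 72 h (0%, with 426 unadjusted), and 0 also passed in both without moderation of the variance. Between 168 to 264 h and 24 to 72 h 5 genes passed (0.0826%), all lower. Among the members 0 passed in each, and SNZ1 alone had an unadjusted p under 0.05, of 0.0129 for 96 to 144 h against 24 to 72 h, where 7.04% of genes did, and of 0.0195 for 168 to 264 h against 24 to 72 h, where 14.9% did. In the moderated F test of a smooth curve over the 12 times, 2 of 6051 genes passed (0.0331%), and the members had adjusted p of 0.679 for SNZ1, 0.521 for SNO1, 0.812 for SNZ2, 0.726 for SNO2, 0.896 for SNZ3 and 0.459 for SNO3. Without the 0 h array SNO3 passed this test (limma adjusted p = 0.0154), as did 1113 genes in all, and over its 21 alternatives the adjusted p of SNO3 ran from 0.000209, as deposited, to 0.653.

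The profiles of the members were set against each other over the 12 arrays, as a description, since the arrays follow each other in time and share their centring. Of the 15 pairs of members 6 had a Pearson r above 0 and 9 below. SNZ1 and SNO1 had an r of 0.21 (Spearman's rho 0.05), SNZ2 and SNO2 -0.52 (rho -0.62) and SNZ3 and SNO3 0.06 (rho -0.06), so no neighbouring pair had similar profiles. The near-identical genes were no closer: SNZ2 and SNZ3 had an r of -0.38 (rho -0.41) and SNO2 and SNO3 -0.13 (rho -0.41). The highest r of any pair was 0.33, between SNO2 and SNZ3, and the lowest -0.58, between SNO1 and SNZ3. Without the 2 arrays farthest from the median of SNZ1, 24 and 48 h, its r with SNO1 was 0.45 and with SNZ2 0.56, against -0.23 with all arrays. For SNZ2 these arrays were 1 and 48 h, and its r was then -0.77 with SNO2 and -0.03 with SNZ3. For SNZ3 they were 24 and 96 h, and its r with SNO3 was 0.35. For SNO1 they were 96 and 144 h, and its r with SNZ3 was -0.26. For SNO2 they were 72 and 240 h, and its r was 0.43 with SNZ3 and -0.14 with SNO3.

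**Figure D3:**
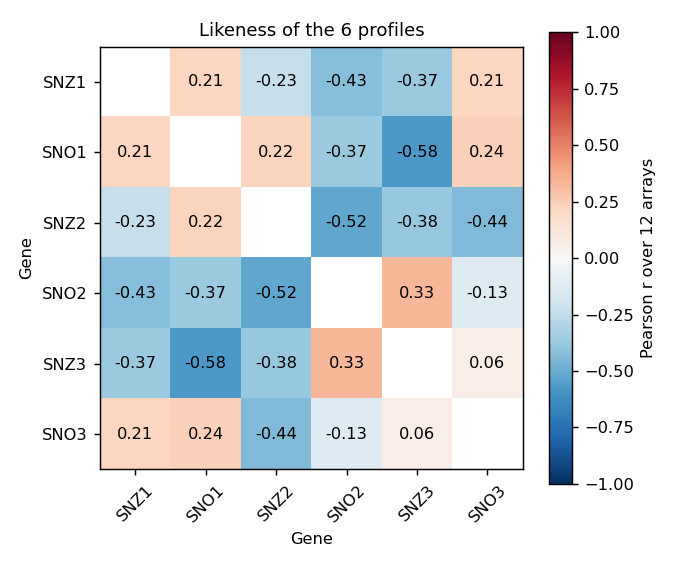
Pearson r between the levels of each pair of SNZ and SNO genes over the 12 arrays (red above 0, blue below). The values run from -0.58 for SNO1 and SNZ3 to 0.33 for SNO2 and SNZ3.

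From 24 to 168 h 5 of the 6 members went up and down between neighbouring times. This pattern was picked out after the values were seen. Of its low points, those of SNO1 at 96 and 144 h, SNZ2 at 48 h and SNO2 at 72 and 120 h were dim. SNZ3 and SNO2 were higher at 48, 96 and 144 h than at both neighbouring times each, as were 12% of the 6048 genes with a value on all arrays. SNO1, SNZ2 and SNO3 were lower at those 3 times than at both neighbours, as were 11.3% of genes, so that 23.3% of all genes had one or the other. SNZ1 had neither. The same 5 genes showed it after quantile normalization. It did not go on at 192 h, where SNZ3 (0.32) lay below its levels at 168 and 240 h and SNO1 (-0.61) above them. The score of the second component of the other genes over the 12 arrays had an r of -0.78 with SNO2 (rho -0.78), 0.62 with SNZ2 (rho 0.73), 0.44 with SNZ1, -0.27 with SNZ3, -0.18 with SNO3 and 0.14 with SNO1. The absolute r of SNO2 was exceeded by 4.60% of the other genes, that of SNZ2 by 17.3%, of SNZ1 by 37.6%, of SNZ3 by 60.3%, of SNO3 by 73.0% and of SNO1 by 79.0%. The first component, with 39.1% of the variance, had an r of 0.81 with SNO3, 0.63 with SNZ1, -0.53 with SNZ2, -0.22 with SNO2, -0.11 with SNZ3 and 0.04 with SNO1. The part of the array scores in the differences above was not tested.

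**Figure D4:**
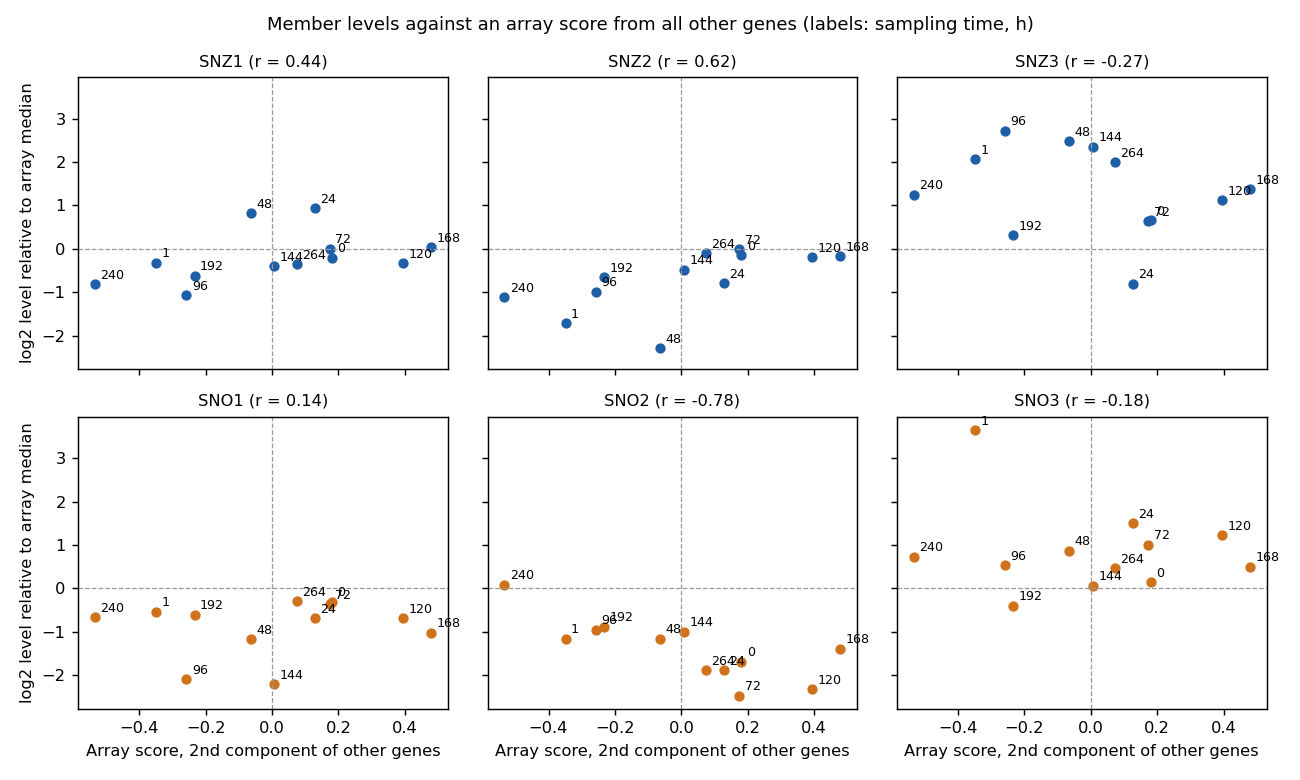
Level of each gene (log2 relative to the array median) against the score of each array on the second principal component of all other genes, with the sampling time in hours beside each point. SNO2 lies lower (r = -0.78) and SNZ2 higher (r = 0.62) on arrays with a high score, and SNO1 shows little relation (r = 0.14).

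The genes most like each member were taken as the 5 with the highest Pearson r over the 12 arrays among 5481 other named genes. With so few arrays, high values of r are found for every member. For SNZ1 they were HIS4 of histidine synthesis (r = 0.91), DAL7, a malate synthase of allantoin use (0.91), VTH1 (0.90), LYS21, a homocitrate synthase of lysine synthesis (0.89), and COA1 (0.88). For SNO1 they were ASE1 (0.94), POB3 (0.91), TAD3 (0.88), SRT1 (0.88) and PNS1 (0.87). For SNZ2 they were GRS2 (0.95), TOR2 (0.93), BPH1 (0.92), ROG3 (0.90) and SWD1 (0.89), and for SNO2 MRX1 (0.95), HVG1 (0.93), DDL1 (0.93), NUP84 (0.92) and CPR8 (0.92). For SNZ3 they were GPI12 (0.90), YLR462W (0.84), ALK2 (0.84), YPL162C (0.84) and HSP10 (0.82). For SNO3 they were TEF4 and EFT1, which encode translation elongation factors (0.93 and 0.91), CDC27 (0.92), PAB1, the poly(A)-binding protein (0.92), and CUP2 (0.91). After quantile normalization the r of these genes lay between 0.55 (LYS21) and 0.92 for SNZ1, 0.81 and 0.94 for SNO1, 0.84 and 0.92 for SNZ2, 0.88 and 0.95 for SNO2, 0.67 (ALK2) and 0.96 for SNZ3, and 0.65 (EFT1) and 0.86 for SNO3, with TEF4 at 0.75. No gene stood among the 5 of more than 1 member, with 0 shared in each of the 15 pairs. The lowest levels of TOR2 (-3.16), BPH1 (-3.01), ROG3 (-3.21), SWD1 (-2.36), DDL1 (-3.57), NUP84 (-2.96) and CPR8 (-2.72) were dim. So were those of COA1 (-2.33), TAD3 (-2.28) and CDC27 (-2.24). SNZ2, SNO2 and SNO1 were themselves dim at their lowest points. The r with these genes thus rests partly on levels with no known floor.

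Genes of vitamin B6 salvage and transport, through which yeast takes up and interconverts the vitamin, gave no call either. All 6 were measured, and 0 passed in any of the 3 window comparisons. Between 24 to 72 h and 0 and 1 h 5 were higher, with a median of 0.28 against -0.08 over all genes, of which 42.3% were higher, and between 168 to 264 h and 24 to 72 h 5 were lower, with a median of -0.20 against 0.04, and 52.8% of all genes were higher there. PDX3, the oxidase that makes pyridoxal phosphate, had its lowest level at 192 h (-0.40) and its highest at 168 h (1.99), after 1.19 at 96 h, 1.01 at 120 h and 0.93 at 144 h. TPN1, the pyridoxine importer of the plasma membrane, lay between -1.56 at 264 h and 1.51 at 144 h, with 0.47 at 48 h, -0.45 at 72 h, 0.91 at 96 h and -1.21 at 120 h. Its r was 0.32 with SNZ3 and 0.73 with SNO2, but -0.69 with SNO1, -0.41 with SNZ2, -0.24 with SNZ1 and -0.23 with SNO3. SNO2 was dim at 0, 72, 120 and 264 h, so the r of 0.73 rests partly on levels with no known floor. BUD16, a pyridoxal kinase gene, lay between -1.39 and 0.03, and BUD17, its relative, between -0.86 and 0.40. TPN1 and BUD16 were higher at 48, 96 and 144 h than at both neighbouring times, as were 12% of all genes. YBL036C, a pyridoxal phosphate-binding protein, lay between -0.55 and 1.64, and YPR127W, a putative pyridoxine dehydrogenase, between -2.28 at 1 h and 0.02.

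Among genes that supply the substrates of the synthase, GLN1 and TPI1 had high levels from 1 to 72 h. GLN1, the glutamine synthetase, had levels of 0.74 at 0 h, 4.03 at 1 h, 4.35 at 24 h, 3.84 at 48 h and 2.41 at 72 h, and lay between 0.92 and 1.90 from 96 h on. TPI1, the triose phosphate isomerase, had 0.95 at 0 h, 4.14 at 1 h, 4.67 at 24 h, 3.28 at 48 h and 2.20 at 72 h, and between 0.29 and 1.53 later. Between 1 h and 0 h GLN1 differed by 3.29 and TPI1 by 3.19 log2 units, but by 1.33 and 1.14 after quantile normalization. All 4 genes of this list were lower at 96 to 144 h than at 24 to 72 h, with a median difference of -1.61 against 0.00 over all genes (50.2% higher), and 0 of 4 passed. GLN1 differed by -2.13 and TPI1 by -2.41 (limma adjusted p = 0.688 each), and RKI1, the pentose phosphate isomerase, by -1.08, while RPE1, the epimerase, differed by -0.63. Over the 12 arrays, in centred levels only, SNZ1 had an r of 0.76 with GLN1, 0.73 with TPI1, 0.22 with RKI1 and 0.12 with RPE1. The r with the 4 genes lay between 0.53 and 0.71 for SNO3, between 0.06 and 0.58 for SNO1 and between -0.72 and -0.43 for SNZ2. For SNO2 it lay between -0.23 and 0.42 (median -0.10) and for SNZ3 between -0.20 and 0.27 (median -0.14).

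Regulators of these genes in S. cerevisiae were measured as well, and 0 of 6 passed in any comparison. GCN4, the activator of amino acid synthesis genes, had levels of 0.43 at 0 h, 3.33 at 1 h, 1.91 at 24 h, 2.60 at 48 h and 0.98 at 72 h, and between -0.49 and 0.80 from 96 h on. Between 1 h and 0 h GCN4 differed by 2.90 log2 units, but by 1.50 after quantile normalization. Its high arrays included the 2 on which SNZ1 was highest and the 1 h array, on which SNZ1 was at -0.33. THI2, an activator of thiamine genes, had -3.50 at 1 h and -3.41 at 48 h, both dim, and lay between -0.92 and 1.16 on the other arrays. The same 2 arrays were the lowest for SNZ2, which was dim at 48 h and at the 6.65 percentile at 1 h. The shared low points of THI2 and SNZ2 are thus levels with no known floor, or close to it. The r of THI2 was 0.78 with SNZ2, -0.23 with SNZ3, -0.13 with SNO2, -0.56 with SNO3, -0.41 with SNZ1 and -0.09 with SNO1. PDC2, another activator of thiamine genes, lay between -1.38 and 0.92, and THI3, a regulator of the same genes, between -1.18 and -0.27. The nitrogen-linked activators GLN3 and GAT1 lay between -2.06 and -0.12 and between -0.33 and 1.59.

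Of the thiamine synthesis and uptake list, 15 of 16 genes were measured and 0 passed in any comparison. Between 24 to 72 h and 0 and 1 h 8 were higher (median 0.22), between 96 to 144 h and 24 to 72 h 5 were higher (median -0.26), and between 168 to 264 h and 24 to 72 h 6 were higher (median -0.36). The corresponding medians of all genes were -0.08, 0.00 and 0.04, with 42.3%, 50.2% and 52.8% of them higher. THI5 and THI12, members of the family that makes the pyrimidine part of thiamine and neighbours of SNZ pairs in S. cerevisiae, lay between -0.64 and 0.70 and between -0.63 and 0.85. THI4, the thiazole synthase, lay between -1.45 and 0.36. The largest difference was in THI21 (-1.22) between 24 to 72 h and 0 and 1 h, and in THI22 between 96 to 144 h and 24 to 72 h (-1.38). Between 168 to 264 h and 24 to 72 h it was in THI22 (-1.31), followed by PET18 (-1.23). Across the list, r with SNZ2 ran from -0.70 to 0.64 with a median of -0.03, and r with SNZ3 from -0.60 to 0.49 with a median of -0.09. The highest r in the list was 0.89, between SNO2 and THI73. Both genes were dim at 0, 72, 120 and 264 h, where THI73 had -2.19, -2.88, -2.81 and -1.86, so this r rests partly on levels with no known floor.

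**Figure D5:**
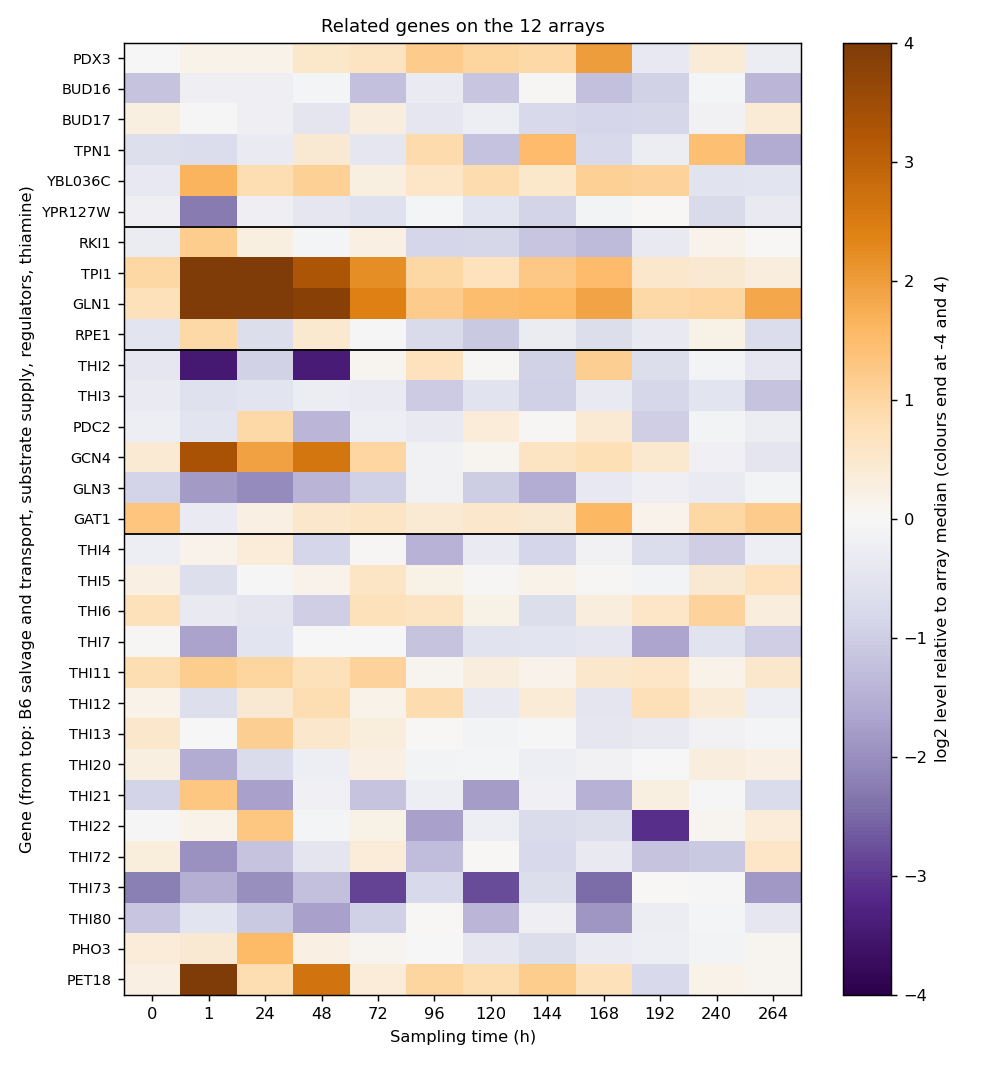
Levels (log2 relative to the array median, colour) of the genes of vitamin B6 salvage and transport, substrate supply, regulators and thiamine metabolism, in rows from top to bottom, on the 12 arrays by sampling time. GLN1, TPI1 and GCN4 are highest from 1 to 72 h, and THI2 is lowest at 1 and 48 h.

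Enzymes that use pyridoxal phosphate as cofactor were the largest list, with 38 of 39 measured and 0 past the threshold. Between 168 to 264 h and 24 to 72 h 16 were higher and 22 lower (median -0.17 against 0.04 over all genes, of which 52.8% were higher). The largest differences there were in CYS4, the cystathionine synthase (-2.45, 5.46-fold lower), BAT1, the mitochondrial branched-chain aminotransferase (-2.42, 5.36-fold lower), STR3, a cystathionine lyase (2.13, 4.38-fold higher), and SHM2, the cytosolic serine hydroxymethyltransferase (-2.04, 4.12-fold lower). Their adjusted p in limma were 0.107 for CYS4, BAT1 and SHM2 and 0.213 for STR3. The windows of STR3 overlapped, and its level at 24 h (-3.46) was dim, against -0.37 at 48 h and -1.37 at 72 h. Between 96 to 144 h and 24 to 72 h 13 were higher and 25 lower (median -0.16), where 50.2% of all genes were higher. Between 24 to 72 h and 0 and 1 h 14 were higher and 24 lower (median -0.04 against -0.08), where 42.3% of all genes were higher. The median r of these enzymes with the members ran from -0.16 for SNO2 to 0.26 for SNZ1. A positive r was found for 27 of 38 with SNZ1, 25 with SNO3, 19 with SNO1, 17 with SNZ2 and 14 each with SNO2 and SNZ3. The share of all genes with a positive r was not computed, so these counts have no background to be set against.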

How the data were processed

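Total RNA of 12 samples was measured on 1 array each, and the authors deposited linear intensity values, whole numbers for 6084 probes. The sources used here do not give the scanner, the background correction or any scaling. Of the probes 5523 had 1 gene symbol in the platform annotation, 561 had none and 0 had several, and probes of the 32 repeated symbols were averaged on the log2 scale. Values were log2 transformed (3 intensities of 0 treated as missing) and centred on each array's median. Windows were compared with limma 3.58.1 (R 4.3.3), fitting the 12 arrays together by lmFit with eBayes moderation and 8 residual degrees of freedom. Tests were two-sided, and p-values were adjusted by Benjamini-Hochberg over 6051 genes and probes with at least 9 values and a threshold of 0.05. A moderated F test of a natural spline with 3 degrees of freedom in hours used the same values. The fits were tried on simulated data with independent noise for each gene and array, so patterns that genes share on an array were not covered. The members, lists and tests were chosen with earlier results of these data known. Named genes were the members, the fixed lists of related genes (for the thiamine and cofactor enzyme lists the largest differences), and the 5 genes most like each member. THI5, THI12, THI4 and THI73 were added after their values were seen. Alternatives were no centring, quantile normalization, equal spread of arrays, normexp (offset 50), a floor at the 5th percentile, the dimmest 25% left out, other models of the variance, another time scale, the 168 h array in the middle window, and each array left out in turn. Precision is limited by the number of arrays. No sequences or positions were used. Figures were drawn with matplotlib 3.10.9.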

Additional observations from a re-analysis of the deposited data

How the results depend on the processing

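The 351 member differences between windows recomputed under the alternatives other than the values as deposited gave 0 calls in limma (lowest adjusted p = 0.128). Without centring, the differences turned to 0.76 for SNO1, 0.98 for SNZ2, 0.66 for SNO2, 0.48 for SNZ3 and 0.30 for SNO3 between 24 to 72 h and 0 and 1 h, to -0.66 for SNZ2 and -0.72 for SNO2 between 96 to 144 h and 24 to 72 h, and to -2.01 for SNO1, -1.58 for SNZ2, -1.28 for SNO2 and -1.64 for SNZ3 between 168 to 264 h and 24 to 72 h. In that last comparison SNZ1 (-3.13, adjusted p = 0.0139) and SNO3 (-2.90, adjusted p = 0.0211) then passed, and over the 12 times SNZ1, SNO1, SNZ3 and SNO3 did (adjusted p = 0.00117, 0.00516, 0.00687 and 0.000209). The difference of SNO1 between 168 to 264 h and 24 to 72 h was -0.075 after quantile normalization and -0.053 with equal spread of the arrays, against 0.09, and that of SNZ2 between 24 to 72 h and 0 and 1 h was 0.13 with the floor, against -0.09. With single arrays left out the sign turned for SNO1 (-0.12 to 0.28), SNZ2 (-0.11 to 1.03) and SNZ3 (-0.33 to 1.31) between 168 to 264 h and 24 to 72 h, for SNO3 (-2.52 to 0.98), SNZ2 (-0.88 to 0.69) and SNZ3 (-1.45 to 0.20) between 24 to 72 h and 0 and 1 h, and for SNZ2 (-0.15 to 0.99) between 96 to 144 h and 24 to 72 h. SNO3 passed over the 12 times without the 0 h array (adjusted p = 0.0154). Counts of all genes past the threshold changed more. Between 168 to 264 h and 24 to 72 h the 5 calls became 2125 without centring, 72 after quantile normalization, 62 with equal spread, 0 with normexp, 8 with the floor, 0 without moderation, 0 with a robust variance trend and 143 with the 168 h array in the middle window, and 0 to 259 with single arrays left out. Over the 12 times the 2 calls became 5091, 68, 53, 4, 5, 0 and 0 under the first 7 of these settings, 277 with time on a log scale, and 0 to 1113 with single arrays left out. Between 24 to 72 h and 0 and 1 h, 1 gene passed with the 168 h array in the middle window, against 0. The cause of these shifts was not tested. No paired analysis was possible because the labels give no replicate numbers. Signal over background was unknown, so levels of dim probes, SNO2 and SNO1 most of all, have no known floor.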
